A study of Mus musculus with 2 samples.

Results

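Glutamate receptors and transporters, the proteins through which neurons and glia sense, package and clear the main excitatory transmitter, were examined as a group of 31 genes among the 32285 genes of the count tables. The genes were chosen by family: 4 AMPA, 7 NMDA, 5 kainate and 1 delta receptor subunit, 7 metabotropic receptors, 3 vesicular transporters and 4 transporters of the plasma membrane. The study sequenced RNA of single nuclei from the cerebellum of postnatal day 1 mice. A conditional knockout (cKO) was made with Nestin-Cre and floxed Tox3 alleles (Tox3f/f), and the control was its littermates without Cre, which carried 1 or both floxed alleles. Nestin-Cre acts in neural precursors, so neurons and glia derived from them carry the recombined allele, whereas microglia do not arise from that lineage. Each genotype was 1 library made from 12 pooled cerebella, so animals could not be separated and no difference between the libraries has a replicate check. Differences are given below as ratios with 95% intervals that cover counting error only, and no p-value is given.

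Glutamate acts on ion channels, which open within milliseconds of its binding, and on metabotropic receptors, which signal through G proteins. AMPA receptors carry most of the fast current, NMDA receptors admit calcium when binding coincides with depolarization, and kainate receptors act on both sides of the synapse. In the cerebellum, granule neurons (GN) release glutamate onto Purkinje cells, Bergmann glia take it up around those synapses, and at birth most granule neurons have yet to be born from their progenitors (GNPs) in the external granular layer.

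After filtering, 4667 nuclei of the control and 6555 of the library labelled cKO were kept, with 20493455 and 30169066 unique molecular identifiers (UMIs, counted RNA molecules) and medians of 3978 and 4025 UMIs per nucleus. The libraries shared 9 cell barcodes. Tox3 itself was not lower in the library labelled cKO (118 CPM, UMIs of a gene per 1000000 UMIs, against 104 CPM in control, ratio 1.14, 1.08 to 1.204), and its ratio was 1.55 in GN-like and 2.19 in GNP-like nuclei. Counts summed over a gene cannot show whether the floxed part is missing, and every direction below therefore rests on the label of that library. Atoh1, the transcription factor that defines GNPs, had 42 UMIs over all kept control nuclei and 3 in the library labelled cKO. Classes of nuclei were named from marker genes and held, with the control first, 1533 and 1903 GN-like, 506 and 117 GNP-like, 292 and 719 Purkinje cell-like, 504 and 1193 GABAergic interneuron-like, 238 and 562 Bergmann glia-like, 171 and 185 unipolar brush cell-like, 76 and 252 oligodendrocyte lineage-like and 54 and 151 microglia-like nuclei. A further 6 of 25 clusters, with 1286 and 1460 nuclei, stayed unnamed. Of these, clusters 1 and 5 were of low depth and uneven between the libraries, with 970 and 52 nuclei in cluster 1 and 47 and 656 in cluster 5. Together they held 21.8% and 10.8% of kept nuclei but 3.41% and 1.58% of UMIs. Clusters were drawn without the 31 genes. In each pair of values below, the control comes first and the library labelled cKO follows.

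To place each gene, its level was first compared between classes of the control library. Of the 31 genes, 29 had the 100 UMIs over both libraries that were required for a comparison. Grin3b, a glycine-binding NMDA subunit, had 46 and 39 UMIs in the control and the library labelled cKO, and Grm6, the receptor of retinal ON bipolar cells, had 0 and 1. Among named classes with at least 50 nuclei, the fast channel subunits divided between neurons and glia. Gria2, the AMPA subunit whose edited form keeps calcium out, was highest in GN-like nuclei at 2131 CPM and stood at 1008 CPM in Bergmann glia-like nuclei. Gria1 and Gria4, which form the calcium-permeable AMPA receptors of Bergmann glia, were highest in that class, at 2715 and 2252 CPM. Gria1 stood at 902 CPM in Purkinje cell-like and 15.9 CPM in GN-like nuclei.

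**Figure D1:**
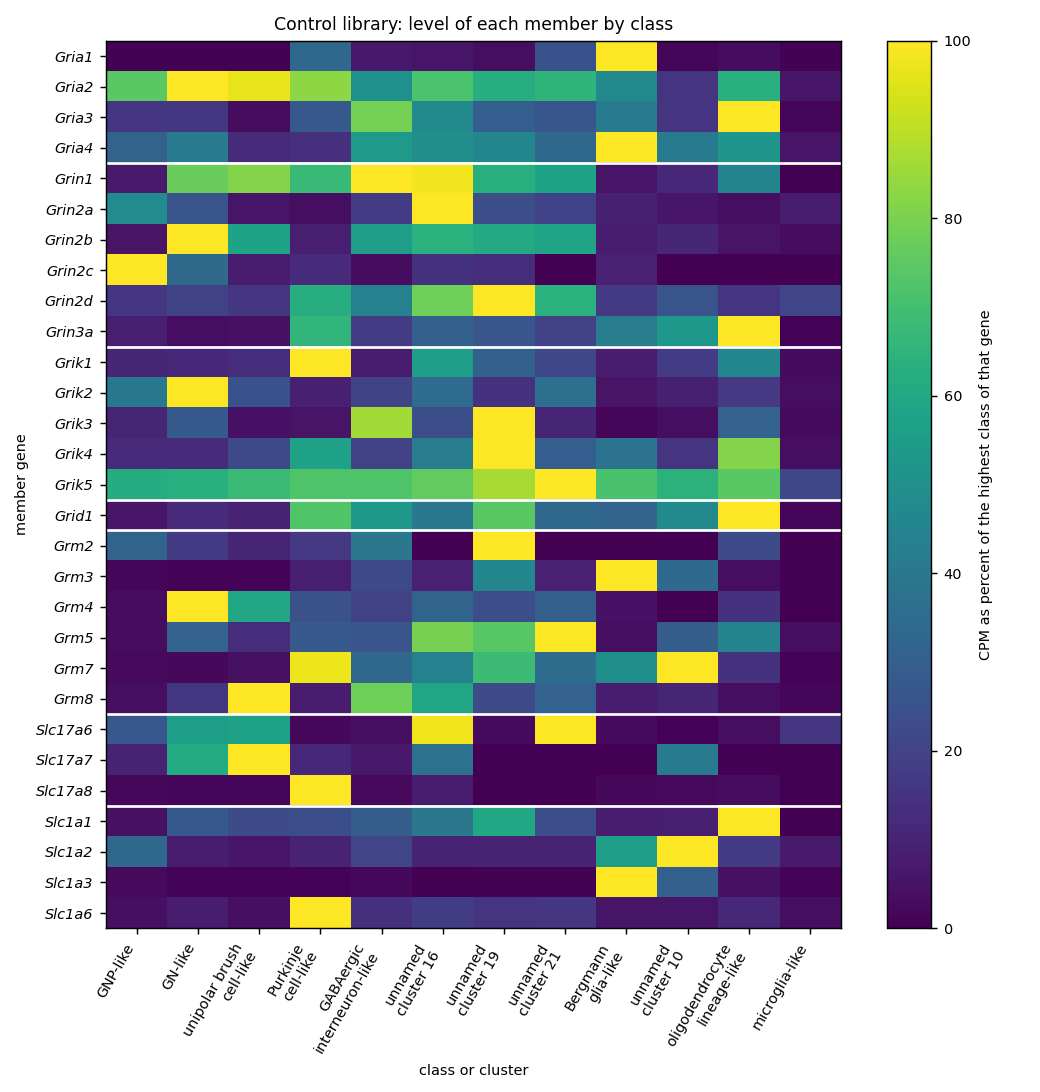
Level of each of the 29 compared genes (rows, ordered by family) in each named class or unnamed cluster (columns) of the control library, as CPM in percent of that gene's highest column. Gria1, Gria4, Grm3 and Slc1a3 are brightest in the Bergmann glia-like column, Gria2, Grin2b, Grik2 and Grm4 in the GN-like column, and Slc17a8, Slc1a6 and Grik1 in the Purkinje cell-like column.

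The NMDA subunits differed in the class that held them. Grin1, the subunit every NMDA receptor needs, was highest in GABAergic interneuron-like nuclei at 164 CPM, with 126 CPM in GN-like nuclei. Grin2b, the glutamate-binding subunit that prevails before birth, reached 1456 CPM in GN-like nuclei and 76.5 CPM in GNP-like nuclei. Grin2a, the subunit that gains ground as synapses mature, had the reverse order within the granule lineage, at 98.5 CPM in GN-like and 183 CPM in GNP-like nuclei. Grin2c, which mature granule neurons use, was also highest in GNP-like nuclei, at 31.1 CPM. Grin2d was highest in Purkinje cell-like nuclei at 34.7 CPM, and Grin3a in oligodendrocyte lineage-like nuclei at 493 CPM.

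Among kainate subunits, Grik2 was highest in GN-like nuclei at 6138 CPM, Grik1 in Purkinje cell-like nuclei at 1331 CPM and Grik3 in GABAergic interneuron-like nuclei at 797 CPM. The high-affinity subunits Grik4 and Grik5, which need a partner subunit to form a channel, were highest in oligodendrocyte lineage-like nuclei at 371 and 79.4 CPM. That class was also the highest for Gria3 (468 CPM), for Grid1, a delta subunit that binds cerebellins at synapses (921 CPM), for the Gq-coupled receptor Grm5 (745.5 CPM) and for the neuronal uptake carrier Slc1a1 (147 CPM). It held 76 control nuclei.

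The remaining metabotropic receptors couple to Gi and lower transmitter release or cyclic AMP. Grm3 was highest in Bergmann glia-like nuclei (3487 CPM), Grm4 in GN-like nuclei (77.7 CPM), Grm7 in Purkinje cell-like nuclei (2079.5 CPM), Grm8 in unipolar brush cell-like nuclei (787 CPM) and Grm2 in GABAergic interneuron-like nuclei (4.9 CPM). Some transporters were highest in the cells they are known for, but the neuronal carrier Slc1a1 was highest in oligodendrocyte lineage-like nuclei. Slc1a3, the uptake carrier of Bergmann glia, reached 4424 CPM there against 41.5 CPM in GN-like nuclei, and Slc1a6, the Purkinje cell carrier, reached 150.5 CPM in Purkinje cell-like nuclei. Slc1a2, the main astrocyte carrier, was highest among named classes in Bergmann glia-like nuclei at 457 CPM and stood at 817 CPM in the unnamed cluster 10. The vesicular transporters Slc17a6 and Slc17a7, which load glutamate into synaptic vesicles, were highest among named classes in unipolar brush cell-like nuclei at 125.5 and 15.1 CPM, and Slc17a6 stood within its counting error of that level in GN-like nuclei, at 122.5 CPM. Slc17a8, the third vesicular transporter, was highest in Purkinje cell-like nuclei at 84.3 CPM. Some members were higher still in unnamed clusters: Grin2a reached 380 CPM and Slc17a6 214 CPM in cluster 16, Grik3 924 CPM in cluster 19 and Grm5 1663 CPM in cluster 21. With nuclei assigned by marker UMIs instead of clusters, 20 of the 29 genes kept their highest class. Grin2a, Grik5, Grm5 and Slc17a6 were then highest in nuclei assigned to glutamatergic cerebellar nuclei markers, Grm3 and Slc1a2 in those of parenchymal astrocytes, Grin2c in Bergmann glia-like, Grid1 in Purkinje cell-like and Grm2 in oligodendrocyte lineage-like nuclei.

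Free RNA in the droplets sets a floor under these levels. In microglia-like nuclei, a class outside the neural lineage, the summed UMIs of the 29 genes gave medians of 11.5 and 18.4 CPM. The highest was Grik2, at 236 and 182 CPM, and 8 and 3 of the 29 genes were at 0. A level near these values can therefore not be read as expression by the class.

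Over all kept nuclei, Grm4 and Slc17a8 passed the threshold for a call, and 0 members did at 2-fold. A gene was called higher or lower when its ratio was at least 1.5 in either direction and it had at least 100 UMIs over both libraries. Grm4 was 38.7 CPM in control against 59.7 CPM in the library labelled cKO (ratio 1.54, 1.42 to 1.68), and Slc17a8 was 14.1 and 22.9 CPM (1.62, 1.41 to 1.87). These were 2 of 29 members called higher, and 0 were called lower. Among all 15630 genes compared, 3.98% were called higher and 4.78% lower. The ratio was above 1 for 22 members and below 1 for 7, and the median log2 ratio was 0.30 against -0.02 over all genes. Grin2d (1.49), Grid1 (1.44), Grm8 (1.43) and Grik4 (1.42) were just inside the threshold, and Grin2d passed it when libraries were scaled by the median of ratios. At the other end, Slc17a7 was 5.32 and 3.94 CPM (0.742, 0.567 to 0.971), Grik2 was 3046 and 2431 CPM (0.798, 0.789 to 0.806) and Slc17a6 was 71.8 and 57.5 CPM (0.801, 0.747 to 0.859).

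Some of the abundant members were close to level between the libraries. Gria2 was 1656 and 1632 CPM (0.986, 0.972 to 0.999), Grin2b 804 and 748 CPM (0.931) and Grik3 270 and 254 CPM (0.940). Some members highest in Purkinje cell-like or glia-like nuclei lay higher in the library labelled cKO without being called: Grik1 was 378 and 522 CPM (1.38), Grm7 625 and 853 CPM (1.37), Slc1a6 33.5 and 46.6 CPM (1.39) and Slc1a3 326 and 429 CPM (1.31). Others highest in glia-like classes were closer to level, such as Slc1a2 (1.02), Grik5 (1.05) and Gria4 (1.09). The other members ran from Grin2c at 0.820 (8.69 and 7.13 CPM) to Grin3a at 1.39 (108 and 151 CPM).

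A level over all nuclei mixes the makeup of a library with the level in each class, and over a whole library fewer nuclei of a type and less RNA per nucleus cannot be told apart. Both terms were therefore computed. With each class held at its control levels and only the share of UMIs per class changed, the median log2 ratio of the 29 members was 0.15, and with the class shares held at control it was 0.12. For 23 of 29 members the measured ratio was within 1.2-fold of the ratio from class shares alone. Grm7 is an example, at 1.37 measured, 1.38 from class shares and 0.987 at control class shares. That count does not set 1 term apart from the other, since a ratio can lie near both. Grin1 was 1.17 measured, 1.07 from class shares and 1.15 at control class shares. Grm4 was not within 1.2-fold: class shares alone gave 0.861, whereas the ratio at control class shares was 1.95. Gria1 had 1.36 from class shares and 0.911 at control class shares, and Grik3 had 1.09 and 0.790.

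**Figure D2:**
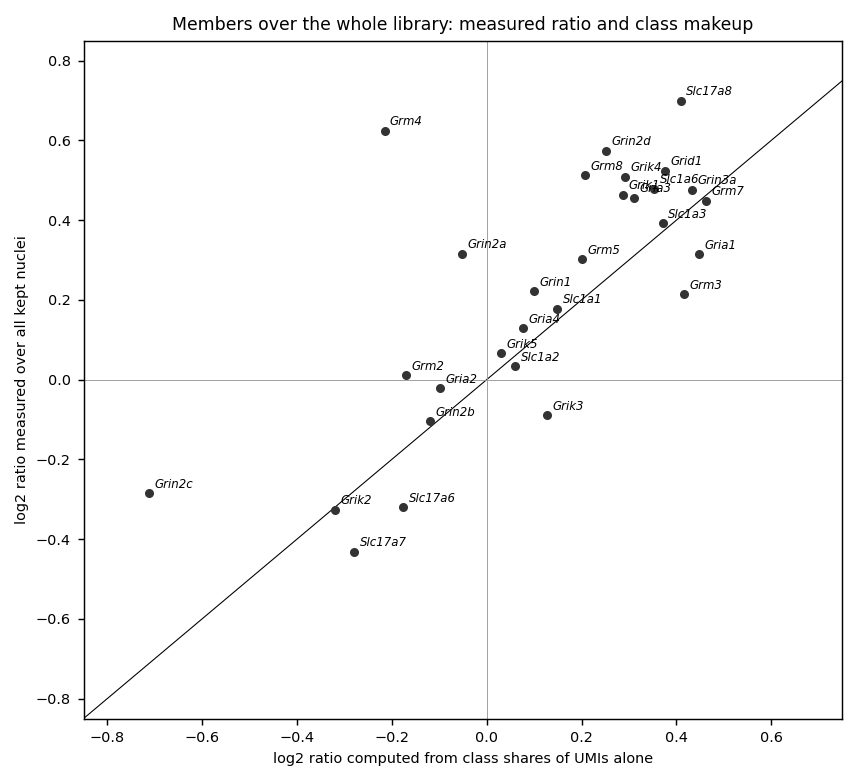
Log2 ratio of the library labelled cKO to control over all kept nuclei (vertical axis) against the log2 ratio given by the classes' shares of UMIs alone (horizontal axis), 1 point per compared gene. Most of the 29 points follow the diagonal, and Grm4, at 1.54 measured against 0.861 from class shares, lies far above it.

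In GN-like nuclei, 6 receptors and carriers were higher in the library labelled cKO. That was the largest number among the 7 classes compared but not the largest share, since GNP-like nuclei had 5 of 17. Of 27 members compared, 6 were called higher (against 2.26% of all 11114 genes) and 1 lower (against 2.45%), and 23 ratios were above 1. The median log2 ratio was 0.36 against -0.02 over all genes of the class. The 6 were Gria3, Grin2a, Grin2c, Grm4, Grm8 and Slc1a3, and the 1 lower was Grik3. Grm2, Grm6, Grin3b and Slc17a8 had too few UMIs there.

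Grm4, the presynaptic receptor through which parallel fibres limit their own release, was 77.7 CPM in control against 169.5 CPM in the library labelled cKO (2.18, 1.98 to 2.41). It was detected in 21.6% (19.6 to 23.7) and 36.2% (34.0 to 38.4) of GN-like nuclei, and in 5.31% and 13.5% once each nucleus was thinned to 1000 UMIs. In microglia-like nuclei it was found in 0 of 54 control nuclei, which allows a share of up to 5.56% by a floor of 3 nuclei (exact upper limit 6.603%), and in 0.662% of those of the library labelled cKO. Median depths were 4529 and 4021 UMIs in GN-like and 2917.5 and 2546 UMIs in microglia-like nuclei.

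The NMDA subunits of mature granule neurons were also higher. Grin2a was 98.5 and 184 CPM (1.87, 1.71 to 2.04) and was detected in 23.4% (21.3 to 25.6) and 34.9% (32.8 to 37.1) of GN-like nuclei, or 7.08% and 14.1% after thinning. In microglia-like nuclei it was detected in 3.70% and 3.31%. Grin2c rested on 81 and 175 UMIs, at 10.7 and 21.2 CPM (1.97, 1.51 to 2.60). The embryonic subunit Grin2b was level, at 1456 and 1461 CPM (1.00, 0.977 to 1.03), and Grin1 was 126 and 167 CPM (1.32). Without doublet removal, where the class held 618 and 646 nuclei, Grin2a was 1.33, and Grin2c was 1.27 when the 31 genes were kept among the clustering features.

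Gria3, an AMPA subunit, was 76.4 and 146 CPM (1.91, 1.73 to 2.11), whereas Gria2 was 2131 and 2249 CPM (1.06) and Gria4 was 923 and 1161 CPM (1.26). Grm8, like Grm4 a receptor of group III, was 127 and 199 CPM (1.57, 1.44 to 1.70) but 1.24 without doublet removal, and the Gq-coupled Grm5 was 524 and 716 CPM (1.37). Slc1a3 was 41.5 and 65.9 CPM (1.59, 1.38 to 1.83). Its level in microglia-like nuclei, taken here as a guide to free RNA, moved from 51.8 to 92.2 CPM. That level is above the one in GN-like nuclei, so no ratio is left once it is subtracted, and the part of free RNA in the value was not tested.

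Grik3, a low-affinity kainate subunit, was the 1 member called lower, at 260 and 141 CPM (0.541, 0.502 to 0.582). It was detected in 38.9% (36.4 to 41.4) and 26.0% (24.0 to 28.0) of GN-like nuclei, and in 16.8% and 9.99% after thinning, with 7.41% and 5.96% of microglia-like nuclei before thinning. The other kainate subunits did not share that direction. Grik2 was 6138 and 6166 CPM (1.00), Grik1 148 and 193 CPM (1.30) and Grik4, just short of the threshold, 54.0 and 80.8 CPM (1.498, 1.32 to 1.70). Slc17a6, the vesicular transporter of young granule neurons, was 122.5 and 97.1 CPM (0.793, 0.720 to 0.873). The summed markers of other classes also moved in GN-like nuclei: the 7 Purkinje cell markers from 137 to 224 CPM, the 6 Bergmann glia markers from 327 to 393 CPM and the 9 GNP markers from 272 to 190 CPM. Their part in the members' ratios was not tested.

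**Figure D3:**
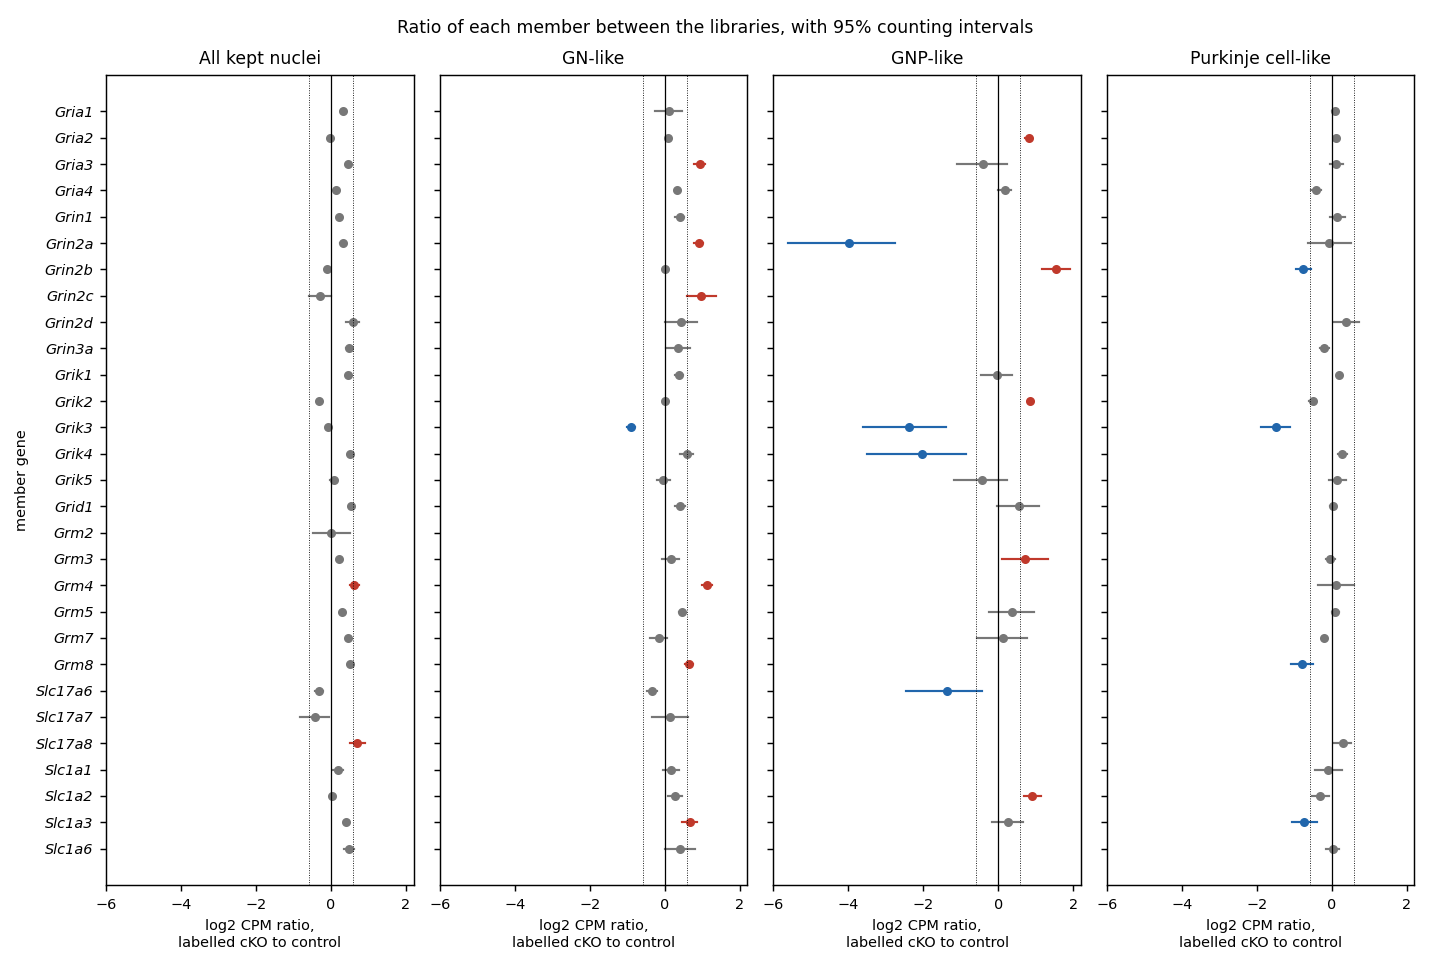
Log2 ratio of the library labelled cKO to control for each gene (points) with its 95% counting interval (lines) over all kept nuclei and in GN-like, GNP-like and Purkinje cell-like nuclei. Red points are at least 1.5-fold higher, blue points at least 1.5-fold lower, dotted lines mark 1.5-fold. Grin2a is red in the GN-like panel (1.87) and the farthest blue point in the GNP-like panel (0.0634), whereas Grik3 is blue in all 3 classes shown.

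In GNP-like nuclei, Grin2a, Grik3, Grik4 and Slc17a6 were lower and Gria2, Grin2b, Grik2, Grm3 and Slc1a2 higher in the library labelled cKO. Of 17 members compared, 5 were called higher (7.87% of all 5223 genes) and 4 lower (11.9%), so a larger share of all genes was called in this class than in the other 6. The class held 117 nuclei in the library labelled cKO, and several values rest on few UMIs. Its own marker list was split: of the 9 GNP markers, Atoh1 had 16 and 0 UMIs and Barhl1, a target of Atoh1, was 134 and 6.95 CPM. Gli2 was 662 and 654 CPM and Ptch1 was 544 and 860 CPM, and the list summed to 2664 and 3245 CPM. The 8 GN markers summed to 2593 and 3333 CPM. Whether the nuclei called GNP-like are the same kind of cell in both libraries was not tested.

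Grin2a had 370 UMIs in control GNP-like nuclei and 5 in the library labelled cKO, or 183 and 11.6 CPM, which was 15.8-fold lower (6.69 to 48.8). The level of 11.6 CPM was close to the 11.5 CPM of microglia-like nuclei in the same library. Control microglia-like nuclei stood at 28.8 CPM, and each of these 3 levels rests on 5 UMIs. The part of free RNA was not tested. It was detected in 149 of 506 control nuclei (29.4%, 25.5 to 33.6) and in 4 of 117 (3.42%, 0.939 to 8.52). After thinning the shares were 12.5% and 1.72%, beside 1.92% and 1.32% in microglia-like nuclei. Median depths of GNP-like nuclei were 3735 and 3467 UMIs. Grin2c had 63 and 0 UMIs and was at least 4.47-fold lower against a floor of 3 UMIs over the class.

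The kainate subunits parted ways in GNP-like nuclei. Grik3 was 97.3 and 18.5 CPM (0.191, 0.0812 to 0.383, from 197 and 8 UMIs) and Grik4 was 56.8 and 13.9 CPM (0.245, 0.0881 to 0.550). Grik2 was 2485 and 4496 CPM (1.81, 1.72 to 1.91). Grik3 was detected in 22.5% (18.96 to 26.4) and 6.84% (3.00 to 13.0) of nuclei, and in 7.52% and 2.59% after thinning. The value of the library labelled cKO lies below the 20.8 CPM of its microglia-like nuclei.

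Of the genes that were higher, Grin2b went from 76.5 to 222.5 CPM (2.91, 2.23 to 3.77) and was detected in 19.96% (16.6 to 23.7) and 41.0% (32.0 to 50.5) of GNP-like nuclei, or 5.94% and 12.9% after thinning. Gria2 went from 1583 to 2774 CPM (1.75, 1.64 to 1.87). Both are carried by GN-like nuclei at 1456 and 2131 CPM in control, as is Grik2. In the library labelled cKO, Gria2 was higher in GNP-like than in GN-like nuclei (2774 against 2249 CPM). Grin2b (222.5 against 1461 CPM) and Grik2 (4496 against 6166 CPM) were lower there than in GN-like nuclei. The part of GN RNA in these ratios was not tested. Slc1a2, a glial carrier, went from 276 to 517 CPM (1.87, 1.596 to 2.19). The latter level was above that of Bergmann glia-like nuclei in both libraries and below the 771 CPM of cluster 10 in the library labelled cKO. Grm3 went from 44.9 to 74.2 CPM (1.65, 1.07 to 2.49). Grm3 was not particular to glia, at 1584 CPM in control nuclei of GABAergic interneuron-like cluster 7. In GNP-like nuclei the 6 Bergmann glia markers summed to 408 and 482 CPM, against 5982 and 5753 CPM in Bergmann glia-like nuclei. The 6 GABAergic interneuron markers summed to 49.4 and 102 CPM in GNP-like nuclei. The part of either list in both ratios was not tested. Slc17a6 was lower, at 59.7 and 23.2 CPM (0.388, 0.182 to 0.738, from 121 and 10 UMIs). Grid1 was just inside the threshold at 1.46. With nuclei assigned by marker UMIs instead of clusters, Gria2, Grik2 and Grin2b were 1.03, 1.08 and 1.397 and so no longer called, and Grik4 turned to 1.32. With the microglia-like level subtracted, Grm3 was 0.984 and Slc17a6 0.737, and after thinning Slc1a2 was 1.41. Grm4 had 5 and 9 UMIs and was not compared.

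The start regions of 3 of these genes are shown because Gria2 was higher and Grik3 and Slc17a6 were lower in the GNP-like class. Each is the 250 bases before the RefSeq transcription start on GRCm38.p6, written 5′ to 3′ on the strand of the gene. Capitals mark matches to CANNTG, the E-box bound by basic helix-loop-helix factors such as Atoh1. Gria2 lies at chr3:80802836-80803085 on the minus strand, Grik3 at chr4:125490446-125490695 on the plus strand and Slc17a6, for the upstream of 2 listed starts, at chr7:51621580-51621829 on the plus strand.
Gria2: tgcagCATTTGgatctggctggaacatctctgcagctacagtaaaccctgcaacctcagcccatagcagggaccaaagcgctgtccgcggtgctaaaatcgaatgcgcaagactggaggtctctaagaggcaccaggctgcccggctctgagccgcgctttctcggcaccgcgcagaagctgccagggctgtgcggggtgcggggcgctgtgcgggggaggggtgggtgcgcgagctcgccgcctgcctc
Grik3: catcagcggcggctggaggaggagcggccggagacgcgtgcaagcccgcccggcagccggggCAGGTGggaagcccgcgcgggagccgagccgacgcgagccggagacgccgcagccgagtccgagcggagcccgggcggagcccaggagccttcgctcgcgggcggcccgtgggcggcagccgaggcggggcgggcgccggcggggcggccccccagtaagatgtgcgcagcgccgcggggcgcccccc
Slc17a6: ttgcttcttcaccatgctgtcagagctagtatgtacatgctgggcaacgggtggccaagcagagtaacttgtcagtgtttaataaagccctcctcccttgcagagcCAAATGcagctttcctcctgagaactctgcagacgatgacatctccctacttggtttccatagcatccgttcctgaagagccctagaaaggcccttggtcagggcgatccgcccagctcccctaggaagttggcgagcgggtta
Each held 1 E-box, and 66.2% of the 32851 promoters of that length held at least 1, searched on both strands. Among the 27 promoters listed for 22 of the 31 genes, 16 held one (59.3%). The GLI motif GACCACCCA was found in 0 of the 27 and in 0.225% of all promoters. The higher gene and both lower genes thus held the same number of matches, and their G+C content was 64.8%, 82.0% and 53.2%.

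The granule lineage was then described cluster by cluster. Gli2 was the leading gene of both GNP-like clusters, and Kif11, Top2a and Mki67, genes of dividing cells, were among the 10 leading genes of cluster 15 but not of cluster 18. Among the 4 GN-like clusters, 8 and 4 held the lowest control levels of Grm4, and 2 and 0 the highest. They are listed in that order of Grm4, itself a member, and no order of maturation was measured. Grin2a in control was 104 and 299 CPM in clusters 15 and 18, 14.2 CPM in cluster 8, and 56.7, 92.7 and 144 CPM in clusters 4, 2 and 0. In the library labelled cKO it was 13.4 and 7.58 CPM in the GNP-like clusters and 9.25, 73.7, 157 and 275 CPM in the GN-like ones. In control the level was thus lowest in cluster 8, whereas in the library labelled cKO both GNP-like clusters were under 3 of the 4 GN-like ones.

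Grin2b was instead lowest in the GNP-like clusters of both libraries. Its control level was 76.3 and 76.9 CPM in clusters 15 and 18 and 545, 1451, 1817 and 1499.6 CPM in clusters 8, 4, 2 and 0. In the library labelled cKO the values were 254 and 152 CPM, then 974, 1675, 1503 and 1429 CPM. The library labelled cKO thus exceeded control most in the GNP-like clusters and cluster 8, and lay under it in clusters 2 and 0.

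Grik3 was lower in the library labelled cKO in each of the 6 clusters. The ratio was 0.20 and 0.19 in clusters 15 and 18, 0.27 and 0.23 in clusters 8 and 4, and 0.78 and 0.50 in clusters 2 and 0. Cluster 8 held only 53 and 11 UMIs of Grik3. Grik4 was lower in clusters 15, 18 and 8 (0.25, 0.24 and 0.24) and higher in clusters 4, 2 and 0 (1.46, 2.04 and 1.39). The lower values rest on 115 and 6 UMIs over both GNP-like clusters and 32 and 6 UMIs in cluster 8. Slc17a6 went from 63.8 to 20.04 CPM in cluster 8 and from 98.7 to 39.3 CPM in cluster 4, and was 58.1 and 69.3 CPM in cluster 0. Its highest level was in cluster 2 in both libraries, at 293 and 216 CPM.

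Grm4 was higher in the library labelled cKO in GN-like clusters 2 and 0, the only ones with at least 100 UMIs of it. It was 101 and 230 CPM in cluster 2 (2.27) and 118 and 220 CPM in cluster 0 (1.87), where it was most abundant. In cluster 4 it was 9.87 and 35.6 CPM (3.61, 2.05 to 6.73, from 16 and 58 UMIs). Cluster 8 held 1 and 4 UMIs, too few to compare. Grm8 was mostly in cluster 0, which gave 826 of its 958 and 1427 of its 1644 UMIs, at 250 and 369 CPM. Grin2c came mostly from cluster 2, with 62 of 81 and 147 of 175 UMIs.

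**Figure D4:**
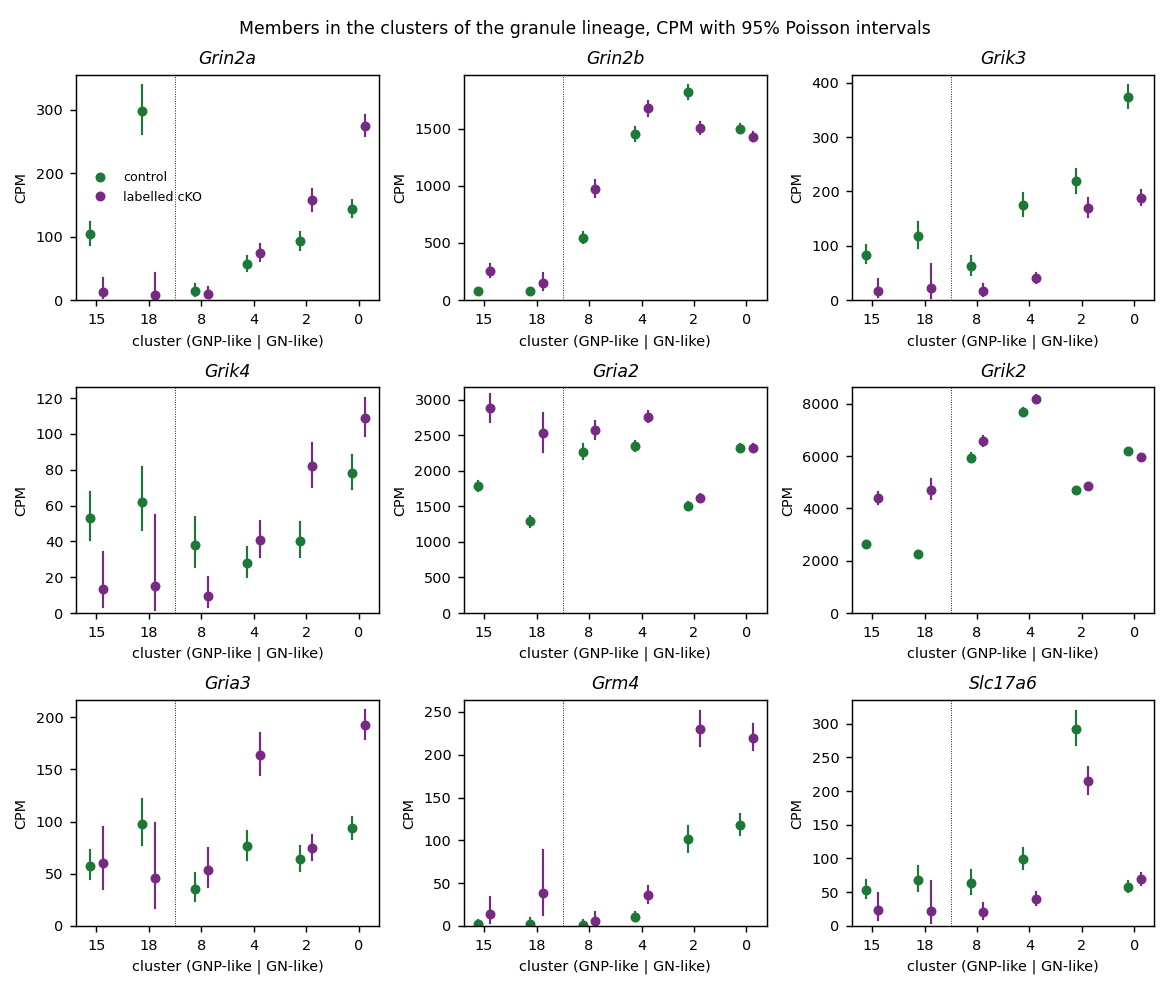
CPM of 9 receptor and transporter genes in the GNP-like clusters (15, 18) and the GN-like clusters (8, 4, 2, 0) of control (green) and the library labelled cKO (purple), with 95% Poisson intervals as bars and a vertical scale of its own for each gene. In control, Grin2a is 104 and 299 CPM in clusters 15 and 18, lowest in cluster 8 (14.2 CPM) and 144 CPM in cluster 0. In the library labelled cKO it is highest in clusters 2 and 0 (157 and 275 CPM). The order of the GN-like clusters is not a measured order of maturation.

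Purkinje cells receive the glutamate that granule neurons release. In Purkinje cell-like nuclei, several of the more abundant members differed by less than 1.5-fold between the libraries. Of 25 members compared, 0 were called higher (1.02% of all 9384 genes) and 4 lower (2.75%). Gria1 was 902 and 949 CPM (1.05), Gria2 1769.97 and 1924 CPM (1.09), Grik1 1331 and 1519 CPM (1.14), Grid1 672 and 689 CPM (1.02) and Slc1a6 150.5 and 152 CPM (1.01). Grm7 was 2079.5 and 1804 CPM (0.867) and Slc17a8 was 84.3 and 102.5 CPM (1.22, 1.05 to 1.42). Slc17a8 was called higher over all nuclei, where Purkinje cell-like nuclei gave 248 of its 289 and 617 of its 691 UMIs.

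The 4 called lower were members whose control level in this class was under that of another class. The same held for Gria1, Gria2 and Grid1, which were not called. Grin2b was 124 and 73.1 CPM (0.588, 0.511 to 0.677), Grik3 47.6 and 16.8 CPM (0.353, 0.270 to 0.459), Grm8 62.2 and 35.6 CPM (0.572, 0.467 to 0.701) and Slc1a3 47.2 and 28.3 CPM (0.598, 0.475 to 0.754). Grik2, just inside the threshold, was 528 and 372 CPM (0.704). In the same nuclei the 8 GN markers summed to 276 and 98.1 CPM and the 9 GNP markers to 178 and 104 CPM. The part of GN RNA in these ratios was not tested. Slc1a3 lay below its level in microglia-like nuclei, 51.8 and 92.2 CPM, in both libraries. Grik3 in the library labelled cKO lay below the 20.8 CPM of its microglia-like nuclei. The part of free RNA was not tested either. With nuclei assigned by marker UMIs instead of clusters, Grin2b was 0.972, Grik3 0.717 and Grm8 1.31, so 3 of the 4 calls did not hold, and without doublet removal Slc1a3 turned to 1.63. The values also differed between both Purkinje cell-like clusters: the Grik3 ratio was 0.24 in cluster 6, led by Car8, and 0.76 in cluster 9, which had Ebf2 among its 10 leading genes, whereas the Slc1a3 ratio was 0.91 and 0.38.

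In Bergmann glia-like nuclei, which sense glutamate through AMPA receptors and clear it, 17 members were compared, 0 were called higher (3.31% of all 6014 genes) and 3 lower (2.21%). Gria1 was 2715 and 1759 CPM (0.648, 0.617 to 0.680) and Gria3 was 193.5 and 114 CPM (0.588, 0.486 to 0.711), while Gria4 was 2252 and 2002 CPM (0.889, 0.845 to 0.935). Grin2b was 113 and 67.8 CPM (0.601, 0.468 to 0.772). Grm3 was just inside the threshold, at 3487 and 2484 CPM (0.712, 0.683 to 0.743). The uptake carriers were close to level, with Slc1a3 at 4424 and 4313 CPM (0.975, 0.941 to 1.01) and Slc1a2 at 457 and 405 CPM (0.886). Grm7 and Grik2 lay on the other side, at 1.31 each. Of the 3 receptors for which the class was the highest in control, Gria1, Gria4 and Grm3, only Gria1 passed the threshold.

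Inhibitory interneurons had few differences. In GABAergic interneuron-like nuclei 24 members were compared, 0 were called higher (1.18% of all 9389 genes) and 1 lower (1.31%). This was Grm4, at 15.4 and 9.65 CPM (0.627, 0.415 to 0.953) from 44 and 56 UMIs, with the 8 GN markers at 460 and 337 CPM in the same nuclei, whose part was not tested. Grik3, highest in this class, had ratios of 0.96 to 1.01 in its clusters 7, 11, 12 and 14 and 0.76 in cluster 22.

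Unipolar brush cells are glutamatergic interneurons of the granular layer. In their class 14 members were compared, 1 was called higher (1.53% of all 3147 genes) and 0 lower (2.19%). Grm3 was 40.2 and 90.5 CPM (2.25, 1.46 to 3.54, from 32 and 70 UMIs). Slc17a6 was 125.5 and 86.6 CPM (0.690, 0.499 to 0.9497) and Grik2 was 1555 and 1082 CPM (0.696), both just inside the threshold. In oligodendrocyte lineage-like nuclei 0 of 17 members were called higher (6.21% of all 2803 genes) and 0 lower (3.67%), and Grm7 was just inside the threshold at 312 and 447 CPM (1.43). Grm3 was thus above control in unipolar brush cell-like and below it in Bergmann glia-like nuclei, with a difference that was not tested.

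Beyond the receptors themselves, 3 lists of genes that act with them were counted. Of 14 auxiliary subunit genes compared over all kept nuclei, 2 were called higher (3.98% of all genes) and 1 lower (4.78%). Shisa6, which holds AMPA receptors at the synapse, was 143 and 226 CPM (1.58), Neto1, an auxiliary subunit of kainate receptors, was 68.4 and 120 CPM (1.75), and Gsg1l, an AMPA receptor auxiliary subunit that slows recovery, was 127 and 57.3 CPM (0.451). Of 18 scaffold genes and 9 genes of glutamate metabolism, 0 were called either way, and the medians of the log2 ratio of the lists were 0.02, 0.06 and 0.06. In GN-like nuclei Shisa6 was 84.8 and 143 CPM (1.68) and was the 1 of 11 auxiliary genes called higher (2.26% of all genes). The 1 of 17 scaffold genes called lower there (2.45%) was Dlgap2, a postsynaptic density protein, at 30.2 and 8.83 CPM (0.292). In Purkinje cell-like nuclei 0 of 12 auxiliary, 18 scaffold and 6 metabolism genes were called (1.02% of all genes higher and 2.75% lower). In GNP-like nuclei 0 genes of the lists were called higher (7.87%), while 1 of 4 auxiliary and 4 of 12 scaffold genes were called lower (11.9%). Gsg1l was 619 and 153 CPM there (0.247, 0.190 to 0.317), and this class gave 1253 of its 2606 control UMIs. Dlgap2 was 190.1 and 13.9 CPM (0.0732, 0.0267 to 0.161), and the others were Dlg2, Dlgap1 and Shank2, chosen after their values were seen.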

How the data were processed

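RNA of single nuclei was measured in 2 Chromium 3′ libraries, 1 per genotype. The authors aligned reads to mm10 with Cell Ranger 7.0.1, and the deposited tables hold raw UMI counts per gene and barcode for 4857 and 6946 barcodes (22325208 and 33726533 UMIs). Barcodes above 25% mitochondrial UMIs (1 and 5) were left out. Scrublet in scanpy 1.11.5 at its automatic threshold marked 1 and 350 barcodes, so the barcodes with the highest scores were removed instead, at 0.8% per 1000 barcodes (189 and 386). Nuclei were integrated and clustered in Seurat 5.3.0 (3000 variable features per library, 2000 integration features, 30 dimensions for integration and 20 for clustering, resolution 0.8) without the 31 genes, the related lists and Tox3. A cluster was named from at least 3 markers of a list fixed with the design, by a rule completed after clusters were seen. Clusters 1 and 5, of low depth, stayed unnamed, and no cluster was removed, although the study removed one. Empty droplets were not analysed here, so free RNA was not corrected.

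UMIs were summed per class and library and divided by the class total (CPM). Intervals are exact Poisson for levels, exact conditional binomial for ratios and exact binomial for shares. They hold no variation between animals. All members were accounted for. Those with 100 UMIs over all kept nuclei were described, those past 1.5-fold in a class were named, and those with ratios of 1.4 to 1.6 or the inverse were called near the threshold. Genes of the other lists were named where called over all kept nuclei or in GN-like nuclei. Marker genes, clusters and leading genes outside that rule were chosen after their values were seen. The scripts were tested on simulated data. Members and lists were chosen with earlier results of these data known. Alternatives changed scaling, filters, fold, doublets, depth, clustering, class assignment and free RNA. Promoter sequences are from RefSeq. Python 3.11.15 and R 4.3.3 were used.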

Additional observations from a re-analysis of the deposited data

Results flagged for a closer look

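The ratio of the library labelled cKO to control lay past 1.5-fold in opposite directions in 2 or more classes for 6 genes. With 1 library per genotype these differences between classes were not tested. Grin2a was 1.87 in GN-like and 0.0634 in GNP-like nuclei. Grin2b was 2.91 in GNP-like nuclei, 0.588 in Purkinje cell-like nuclei and 0.601 in Bergmann glia-like nuclei. Gria3 was 1.91 in GN-like and 0.588 in Bergmann glia-like nuclei. Grm4 was 2.18 in GN-like and 0.627 in GABAergic interneuron-like nuclei, and Grm8 was 1.57 in GN-like and 0.572 in Purkinje cell-like nuclei. Slc1a3 was 1.59 in GN-like and 0.598 in Purkinje cell-like nuclei. In both classes and both libraries Slc1a3 lay below its level in microglia-like nuclei, and the part of free RNA was not tested.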

How the results depend on the processing

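Of 95 counts of members recomputed, 69 were within 1.5 times of the reported count and 26 were not. Over all kept nuclei 1 gene was called lower with a minimum of 20 UMIs or of 1 UMI, 0 were higher at 2-fold, and 8 were higher and 1 lower after thinning to 1000 UMIs. In GN-like nuclei 1 was higher and 0 lower at 2-fold, 2 higher and 2 lower without doublet removal (where the class held 618 and 646 nuclei), 2 lower after thinning, and 5 lower with the microglia-like level subtracted. In GNP-like nuclei 9 were higher and 8 lower with a minimum of 1 UMI, 1 higher at 2-fold, 2 higher and 0 lower after thinning (4 genes compared), and 8 higher at resolution 0.4 or with libraries merged without integration. In Purkinje cell-like nuclei 7 were lower with a minimum of 1 UMI, 1 lower at 2-fold, 1 higher and 2 lower without doublet removal, 0 lower after thinning (15 genes compared), 1 higher and 1 lower with nuclei assigned by marker UMIs, and 3 higher with the microglia-like level subtracted. The causes were not tested.

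Of 732 ratios recomputed under the other settings, 598 stayed inside their counting interval, 130 moved outside it, crossings of 1 by genes that were not called included, and 4 ratios of called genes changed direction. These were Grik4 in GNP-like nuclei (1.32 with nuclei assigned by marker UMIs), Grm3 in GNP-like nuclei (0.984 with the microglia-like level subtracted), Grm8 in Purkinje cell-like nuclei (1.31 by marker UMIs) and Slc1a3 in Purkinje cell-like nuclei (1.63 without doublet removal). With single clusters, an alternative chosen after seeing the data, as was leaving out the low-depth clusters, Grin2a was 0.652 and Grm8 0.686 in cluster 8, and Grm3 was 0.777 in cluster 18. Grin2a and Grik3 in GNP-like nuclei and Gria3, Grik3 and Grm4 in GN-like nuclei had ratios past 1.5-fold in 9 of 9 settings, but Grin2a and Grik3 after thinning and Grm4 without doublet removal were then under 100 UMIs and so not called. Assigned by marker UMIs, Gria2 and Grik2 in GNP-like nuclei fell to 1.03 and 1.08 and Grin2b to 1.397. No paired analysis was possible because each group has 1 library, and no library could be left out.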
